A study of Mus musculus with 12 samples.

Results

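Superoxide dismutases, glutathione peroxidases and peroxiredoxins were examined in the hippocampus of mice of the Madison (MSN) strain and of the outbred hsd:ICR (ICR) strain. The set comprised 10 genes fixed by name, namely Sod1, Sod2, Sod3, Gpx1, Gpx4, Prdx1, Prdx2, Prdx3, Prdx5 and Prdx6. A gene was measured where the platform annotation gave its symbol to a transcript cluster (a set of probes along 1 transcript) and to no other gene with it. This held for 8 of the 10 genes, with 11 transcript clusters, out of 19939 genes with such a cluster. Prdx5 and Prdx6 had no such cluster in the annotation used here and were not analysed here. Sod1, Sod2, Sod3, Gpx1 and Prdx3 had 1 cluster each, and Gpx4, Prdx1 and Prdx2 had 2 each.

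Total RNA of macrodissected hippocampus from 6 MSN and 6 ICR mice was hybridized to Affymetrix Mouse Gene 1.0 ST arrays, with a separate mouse on each array. All were untreated adult males, about 10 weeks old, housed singly in the same room, and each had been observed for locomotor activity on the day before the hippocampus was taken. MSN mice are a highly inbred strain with a manic phenotype, descended from ICR mice through selection for wheel running and then for maternal defense, while ICR mice are outbred and are labelled normal in behavior. The strains were bred in separate colonies, so that the effects of strain and of colony cannot be told apart.

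These enzymes work in sequence. Superoxide dismutases turn superoxide, a by-product of respiration, into hydrogen peroxide, which is then removed by glutathione peroxidases at the expense of glutathione, by peroxiredoxins at the expense of thioredoxin, or by catalase. In the brain, where oxygen use is high and membranes are rich in unsaturated lipids, the enzymes are spread over the cytosol, the mitochondria and the extracellular space, and several of their genes can be induced by the transcription factor NRF2 through a DNA motif called the antioxidant response element.

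No superoxide dismutase, glutathione peroxidase or peroxiredoxin gene passed the test between MSN and ICR hippocampus. limma called 0 of 11 clusters at an adjusted p under 0.05, where 0.777% of the 23410 clusters tested across the array were called, and the lowest adjusted p was 0.453. At an unadjusted p under 0.05 there were also 0 of 11, against 12.7% of all clusters, and in 0 of 11 did the MSN values lie clear of the ICR values, against 1.44% of all. The unadjusted count was not 0 in every setting: Prdx1 cluster 10436048 had an unadjusted p of 0.024 with the same median for each array, 0.0495 with trended robust eBayes and 0.0409 with array weights, and without ICR replicate 2 the Prdx1 clusters had 0.017 and 0.0486, with adjusted p of 0.247 or more in these limma fits. The lowest p of a two-sided exact permutation test of 6 against 6 mice was 0.108. Split by direction, 0 clusters passed as higher in MSN mice (0.303% of all) and 0 as lower (0.474% of all), and 0 were higher at an unadjusted p under 0.05 (5.18% of all). The log2 fold change was above 0 in 7 of the 11 clusters, and in 5 of the 8 genes read from their brightest cluster, against 45.5% of all clusters. The share of all clusters moved with the scaling, to 55.4% after quantile normalization (7 of 11) and 59.5% with the same median for each array (8 of 11). The absolute log2 fold change had a median of 0.032 over the 11 clusters and of 0.047 over all clusters. In 10 of the 11 clusters the 95% interval of the MSN to ICR ratio lay inside 0.8 to 1.25, with Sod3 as the exception, and none of these 10 intervals reached beyond 0.21 on the log2 scale in either direction.

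The array as a whole gave 182 called clusters, 71 higher and 111 lower in MSN mice, and 131 higher and 109 lower after quantile normalization. Leaving out 1 array gave between 91 and 210 called clusters, with 118, 93, 103 and 91 without ICR replicate 5, ICR replicate 6, MSN replicate 3 and MSN replicate 4. The median intensity of the tested clusters ranged from 373 to 389 over the 12 arrays. Arrays correlated at 0.992 to 0.997 within a strain and at 0.992 to 0.996 between strains. All 9 markers of hippocampal excitatory neurons, among them Prox1 of dentate granule cells and Wfs1 of CA1, had mean intensities over 100. So did at least 19138 of the 21789 single-gene clusters, and all 6 measured markers of thalamus and cortex. These levels therefore do not show how clean the dissection was. A log2 fold change here is the MSN mean minus the ICR mean of log2(intensity + 16), and a gene's level is compared between mice and never with that of another gene.

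**Figure D1:**
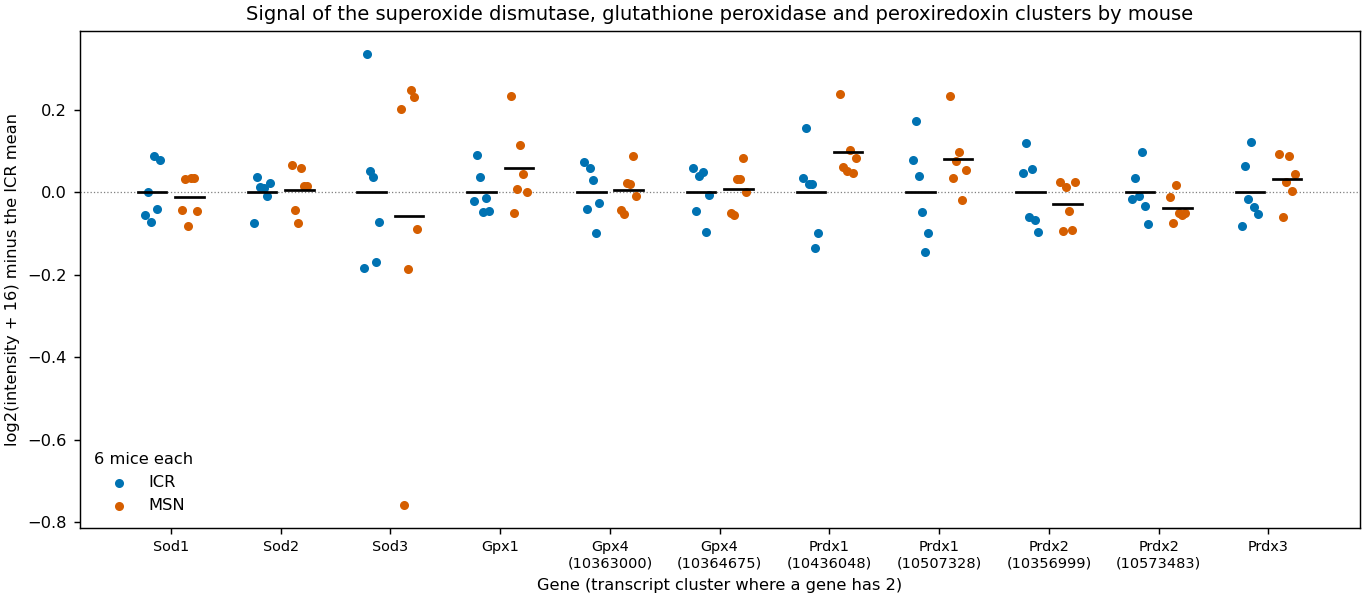
Signal of the 11 transcript clusters in each mouse, on the log2(intensity + 16) scale relative to the ICR mean, with blue points for ICR mice, orange points for MSN mice and black lines for the strain means. The strains overlap in every cluster, and the lowest point is the Sod3 value of MSN replicate 2, an intensity of 195.

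Sod1 and Sod2, the copper-zinc dismutase of the cytosol and the manganese dismutase of the mitochondrial matrix, did not differ between the strains beyond the spread between mice. Sod1 had intensities from 5089 to 5522 with a median of 5374 in MSN mice and from 5129 to 5728 with a median of 5318 in ICR mice. The means were 5350 ± 192 (SD, n = 6) and 5395 ± 259 (SD, n = 6), and the log2 fold change was -0.011 (95% interval -0.096 to 0.073, adjusted p = 0.930 from limma). Its sign turned when each array was scaled to the same median, to 0.015. Sod2 ran between 4116 and 4537 with a median of 4382 in MSN mice and from 4114 to 4449 with a median of 4372 in ICR mice. The ranges covered each other almost fully, and the means of 4357 ± 166 and 4336 ± 118 gave a log2 fold change of 0.0066 (95% interval -0.068 to 0.082, adjusted p = 0.957 from limma). Ccs, the chaperone that loads copper into Sod1, read 307 ± 15.6 in MSN and 304 ± 15.7 in ICR mice (adjusted p = 0.935 from limma).

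Sod3, the secreted dismutase that is bound to the extracellular matrix and is best known from vessel walls, was the gene that differed most from mouse to mouse. The 6 MSN mice read 395, 195, 298, 408, 403 and 320 in the order of their replicate numbers, and the 6 ICR mice 298, 434, 354, 350, 301 and 324. The lowest value of all was that of an MSN mouse and the highest that of an ICR mouse, and the strains overlapped. The mean of the MSN mice was 336 ± 83.3 and that of the ICR mice 344 ± 50.3 (SD, n = 6 each), with coefficients of variation of 24.8% and 14.6%. The log2 fold change was -0.058 (adjusted p = 0.907 from limma), and its 95% interval of -0.38 to 0.27 left room for a change of anywhere from -23.3% to 20.3%. Without MSN replicate 2 the log2 fold change was 0.081, and its adjusted p was 0.783. The within-strain SD of Sod3 on the log2 scale, 0.31, was exceeded by 0.893% of all tested clusters. Of the 7 measured markers of endothelium and pericytes, 0 passed in limma, where 0.777% of all clusters were called. At an unadjusted p under 0.05 there was 1, against 12.7% of all clusters, Slco1a4 at -0.17 (adjusted p = 0.281). In direction 5 of the 7 were above 0 and 2 below, with a median log2 fold change of 0.041, and 45.5% of all clusters were above 0. The summed intensity of the 7 markers ran from 5477 to 6885 in MSN and from 5469 to 5979 in ICR mice. The part of these cells in the Sod3 values was not tested, and in whole tissue fewer cells of a type cannot be told apart from less RNA per cell.

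Gpx1 and Gpx4 are selenoenzymes, which carry selenocysteine in the active site. Gpx1, the main glutathione peroxidase of the cytosol, ran from 879 to 1073 with a median of 927 in MSN mice and from 880.1 to 971 with a median of 899 in ICR mice. MSN replicates 1 and 4, at 1073 and 987, lay above every ICR mouse, and the lowest MSN mouse lay just below the lowest ICR mouse. The means were 951 ± 70.0 and 911 ± 35.5 (SD, n = 6 each), a log2 fold change of 0.059 (95% interval -0.043 to 0.16, adjusted p = 0.660 from limma). Without MSN replicate 1 it was 0.024, with an adjusted p of 0.859. Gpx4, the enzyme that reduces lipid hydroperoxides within membranes and holds ferroptosis in check, had almost the same mean in the strains in each of its clusters. In cluster 10364675 MSN mice had 1281 ± 47.6 and ICR mice 1275 ± 54.4, with medians of 1288 and 1289 and ranges of 1225 to 1350 and 1190 to 1327 (log2 fold change 0.0070, 95% interval -0.075 to 0.089, adjusted p = 0.958 from limma). In cluster 10363000 they had 1362 ± 49.1 and 1358 ± 62.8, with medians of 1362 and 1359 and ranges of 1309 to 1443 and 1266 to 1430 (log2 fold change 0.0047, 95% interval -0.078 to 0.088, adjusted p = 0.976 from limma).

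**Figure D2:**
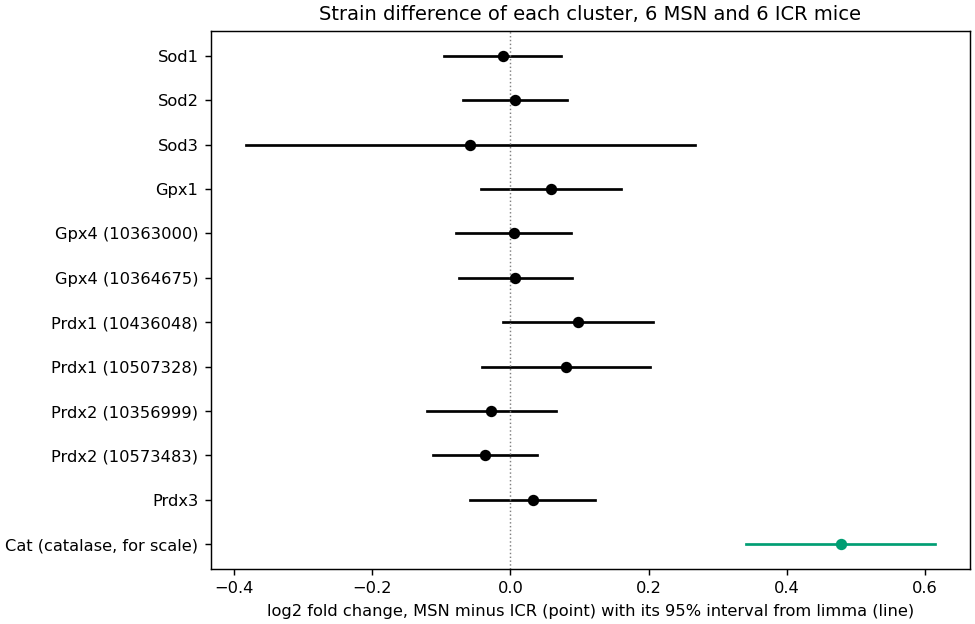
Log2 fold change of MSN over ICR for the 11 clusters (points) with 95% intervals from limma (lines), and for Cat, the catalase gene, which is not among the 10 genes. All 11 intervals include 0, that of Sod3 being the widest at -0.38 to 0.27, while the Cat interval runs from 0.34 to 0.61.

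Prdx1, a cytosolic peroxiredoxin that is a known NRF2 target, had the lowest p values of the set, and they did not pass. In cluster 10436048 the MSN mice ran from 1978 to 2260 with a median of 2014 and the ICR mice from 1742 to 2136 with a median of 1942. All 6 MSN mice lay above the ICR median, and only MSN replicate 1, at 2260, lay above the highest ICR mouse. The means were 2052 ± 107 and 1919 ± 140 (SD, n = 6 each), a log2 fold change of 0.097 (standard error 0.0508, 95% interval -0.0115 to 0.21, adjusted p = 0.453 from limma, and p = 0.108 in the exact permutation test). Of all tested clusters, 20.4% had a larger absolute log2 fold change. In cluster 10507328 the MSN mice had 2427 ± 148 and the ICR mice 2298 ± 192, with ranges of 2264 to 2699 and 2073 to 2585, and 5 of 6 MSN mice lay above the ICR median (log2 fold change 0.080, 95% interval -0.041 to 0.20, adjusted p = 0.604 from limma). It was 0.049 without MSN replicate 1 and 0.051 without ICR replicate 5.

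Prdx2, the peroxiredoxin of the cytosol of neurons and of red blood cells, had log2 fold changes below 0 within the spread between mice. Cluster 10356999 ran from 4206 to 4569 with a median of 4438 in MSN mice and from 4199.7 to 4873 with a median of 4471 in ICR mice (log2 fold change -0.028, 95% interval -0.12 to 0.066, adjusted p = 0.836 from limma). With 1 array left out this value ran from -0.047 without ICR replicate 6 to -0.0038 without ICR replicate 2. Cluster 10573483 ran from 1897 to 2024 with a median of 1930 in MSN mice and from 1894 to 2138 with a median of 1982 in ICR mice. Here 2 of 6 MSN mice exceeded the ICR median, and the log2 fold change was -0.037 (95% interval -0.11 to 0.038, adjusted p = 0.713 from limma), or -0.018 without ICR replicate 4. The 3 measured red blood cell markers, Alas2, Slc4a1 and Epb42, did not pass either. At an unadjusted p under 0.05 there was 1, against 12.7% of all clusters, Alas2 at 0.15 on the log2 scale (limma adjusted p = 0.376). The summed intensity of the 3 markers was 633 to 807 in MSN and 624 to 726 in ICR mice, while the hemoglobin genes had no single-gene cluster. Prdx3, the peroxiredoxin of the mitochondrial matrix, ran from 1510 to 1678 with a median of 1613 in MSN mice and from 1486 to 1714 with a median of 1546 in ICR mice. The MSN range lay inside the ICR range, and the log2 fold change was 0.032 (95% interval -0.058 to 0.12, adjusted p = 0.793 from limma). It ran from 0.016 without ICR replicate 1 to 0.057 without ICR replicate 4.

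Gpx4, Prdx1 and Prdx2, the genes with 2 clusters, are also the 3 measured genes after which the RefSeq gene table names pseudogenes, 2 for Gpx4, 1 for Prdx1 and 2 for Prdx2. Pseudogenes can be similar enough to share probes with the gene, so the clusters cannot be assigned to the functional gene with certainty. This limit covers Prdx1 cluster 10436048, which had the lowest p, and Prdx2 cluster 10356999, the brighter of that gene. The positions of the clusters in the genome were not examined here. After strain means were taken off, the 2 Gpx4 clusters followed each other over the 12 mice at r = 0.97 (Spearman's rho 0.99, permutation p = 3e-05 and 2e-05), and at 0.95 without the 2 mice farthest from the median. The 2 Prdx1 clusters did so at r = 0.95 (rho 0.87, permutation p = 9e-05 and 0.00059), and at 0.86 without the farthest 2. For the Prdx2 clusters the value was r = 0.72 (rho 0.83, permutation p = 0.0168 and 0.00474), and at 0.64 without the farthest 2. Adjusted over these 3 relations the p values of r were 9e-05, 0.000135 and 0.0168, and those of rho were 6e-05, 0.000885 and 0.00474. Within a strain r was 0.99 in MSN and 0.97 in ICR mice for Gpx4, 0.94 and 0.95 for Prdx1, and 0.70 and 0.73 for Prdx2.

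**Figure D3:**
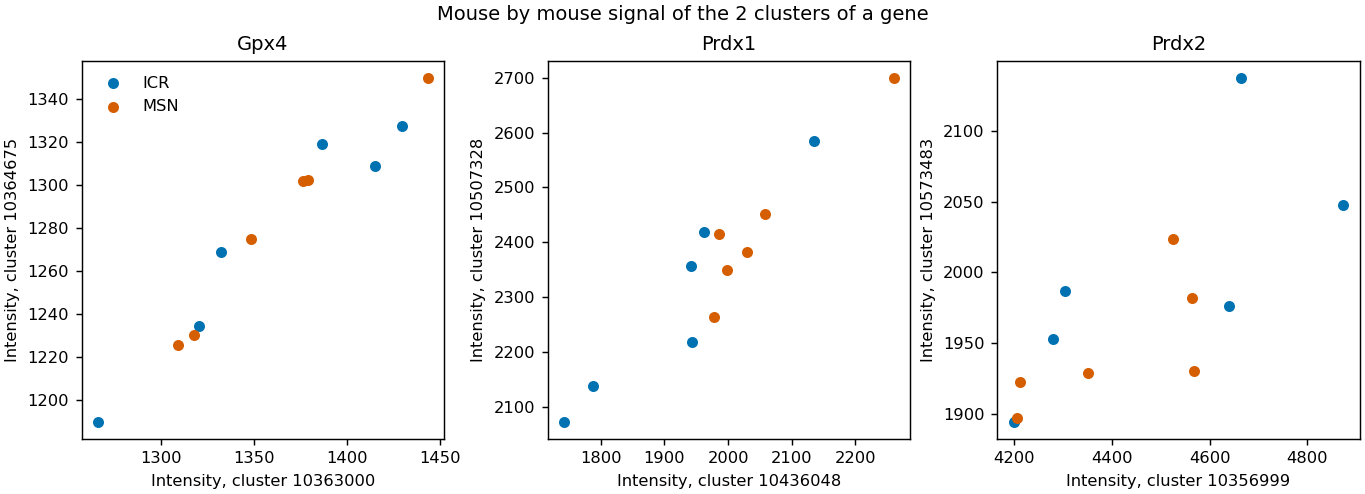
Intensity of the 2 transcript clusters of Gpx4, Prdx1 and Prdx2 in each of the 12 mice (ICR in blue, MSN in orange). The Gpx4 and Prdx1 points lie along a line, with r of 0.97 and 0.95 after strain means are taken off, and for Prdx2 r is 0.72.

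The antioxidant response element is shown here for the measured genes because it is the regulatory sequence through which NRF2 is known to raise genes of this system together. Its core was searched as TGACNNNGC, which reads GCNNNGTCA on the other strand, in RefSeq promoter windows of 300 bases (250 before and 50 after the transcription start, build GRCm38.p6). Windows were found for 7 of the 8 measured genes, and a match lay in those of 2 genes, Prdx1 and Sod1, while 14.0% of all genes with a window held one. By window it was 2 of 10, against 12.4% of all 32851 windows. The stretches around the matches are given on the strand of the gene, which for each is the plus strand, with the matched bases in capitals, at chr4:116685431-116685509 for Prdx1 and chr16:90220671-90220749 for Sod1.
Prdx1: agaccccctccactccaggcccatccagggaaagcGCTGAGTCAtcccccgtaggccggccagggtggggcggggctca
Sod1: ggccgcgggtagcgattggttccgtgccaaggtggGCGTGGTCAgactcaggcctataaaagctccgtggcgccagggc
The match begins 133 bases before the start of Prdx1 and 56 bases before that of Sod1. A match says that these letters are present and not that the factor binds there. Nfe2l2, which encodes NRF2, read 778 ± 58.3 in MSN and 736 ± 73.9 in ICR mice (log2 fold change 0.081, adjusted p = 0.663 from limma).

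The spread between mice was compared with the spread over the whole array. The median SD within strains, on the log2 scale, was 0.068 for the 11 clusters and 0.091 for all tested clusters. The SD was larger in MSN than in ICR mice in 3 of the 11 clusters, namely those of Sod2, Sod3 and Gpx1, or 27.3%, while the inbred strain had the larger SD in 50.03% of all clusters. ICR replicate 5 lay above the ICR mean in 0 of the 11 clusters and in 41.8% of all tested clusters, and MSN replicate 2 in 3 of 11 and in 49.5% of all. ICR replicates 2 and 4 and MSN replicate 4 lay above that mean in 9 of 11, and in 60.9%, 49.6% and 48.7% of all. The 11 clusters come from 8 genes on the same arrays, and these counts are a description.

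Between genes, with strain means taken off and each gene read from its brighter cluster, 21 of 28 pairs correlated positively over the 12 mice, with a median r of 0.31. At a permutation p under 0.05 there were 7 pairs, and 0 pairs after adjustment over the 28. The same counts were not made for pairs of other genes. Whether they are particular to this set is therefore not known. Sod2 and Sod3 had r = 0.72 (permutation p = 0.0177, adjusted p = 0.134) and rho = 0.79 (permutation p = 0.00518, adjusted p = 0.112), with r = 0.73 in MSN and 0.72 in ICR mice and 0.89 without the 2 mice farthest from the median of Sod2. Gpx1 and Prdx1 had r = 0.72 (permutation p = 0.00573, adjusted p = 0.134) and rho = 0.50 (permutation p = 0.0662, adjusted p = 0.232), with r = 0.83 in MSN and 0.76 in ICR mice. Without the 2 mice farthest from the median of Gpx1 that r was 0.30, so the relation rested on those mice. The points of a pair share their array, and no scan date or batch was given in the sources used here.

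The genes most like Prdx1 cluster 10436048 in this mouse-to-mouse pattern, among 19137 single-gene clusters of other genes with a mean intensity over 100, were Atp5h (r = 0.96), Eva1a (r = 0.94) and Zfp292 (r = 0.93). For Sod3, among 19138 such clusters, they were Zdhhc20 (r = 0.92), Fxr1 (r = 0.91) and Acadl (r = 0.91). These are the highest of many values over 12 mice and are given as a description without a test. None of these 6 genes passed the test between strains, with adjusted p values from limma of 0.314 for Zfp292 and higher for the others.

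**Figure D4:**
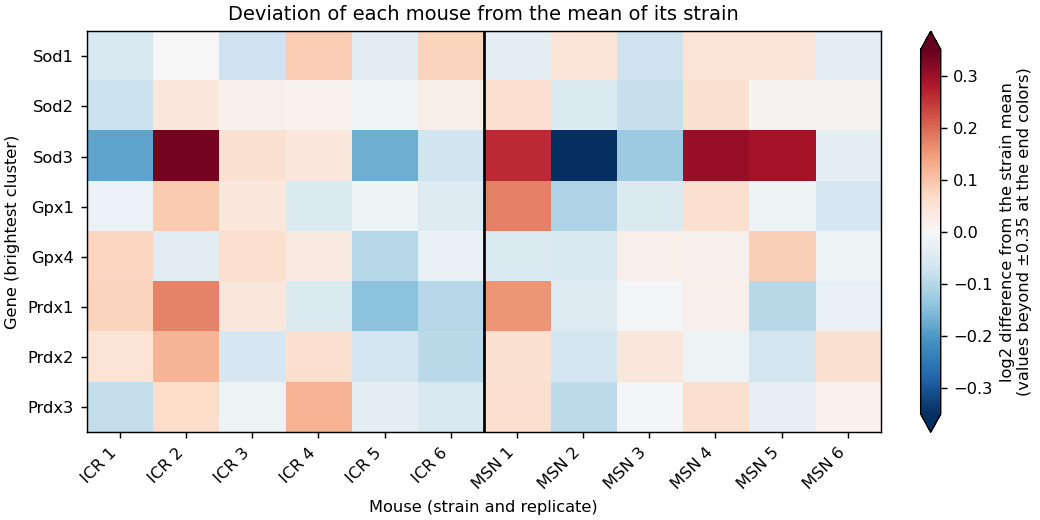
Deviation of each mouse from the mean of its strain, on the log2(intensity + 16) scale, for the 8 genes (rows, brightest cluster) in the 6 ICR and 6 MSN mice (columns), red for higher and blue for lower. Sod3 shows the deepest colors, and MSN replicate 1 and ICR replicate 2 are red in Gpx1 and Prdx1.

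The rest of the antioxidant system was read from a list of 52 genes, of which 50 had a cluster. limma called 1 of them, Cat, higher in MSN mice, where 0.777% of all clusters were called, and the other 49 did not pass. The paper had already reported Cat among the genes that differed in these arrays. The list was written with earlier results of these data known, so its count is a description. At an unadjusted p under 0.05 there were 7 of the 50, against 12.7% of all clusters. The list had 24 genes above 0 and 26 below, with a median log2 fold change of -0.0090 against -0.0079 for all tested clusters. Cat, the catalase of peroxisomes, ran from 2296 to 2659 in MSN mice and from 1445 to 1964 in ICR mice. The strains did not overlap, which held for 1.44% of all clusters. The log2 fold change of Cat was 0.48 (standard error 0.0637, limma adjusted p = 0.00369). Whether this differed from the change of any of the 8 genes was not tested. Of the other peroxidases, Gpx2, an enzyme of epithelia, was at -0.13 on the log2 scale (adjusted p = 0.453), and Prdx4, the peroxiredoxin of the endoplasmic reticulum, read 232 ± 20.1 against 232 ± 25.8.

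The thioredoxin and glutathione systems supply electrons to the peroxiredoxins and glutathione peroxidases. Over the whole array, 0.777% of all clusters were called in limma and 12.7% had an unadjusted p under 0.05. None of 10 thioredoxin system genes passed in limma, with 2 at an unadjusted p under 0.05. Sesn3, a sestrin, was at a log2 fold change of 0.11 (adjusted p = 0.290) and Txnrd3, a thioredoxin reductase, -0.13 (adjusted p = 0.366). None of 9 glutathione system genes passed, with 0 at an unadjusted p under 0.05. Gsr, the glutathione reductase, was at 0.069 (adjusted p = 0.427) and Pgd, an enzyme of NADPH supply, at -0.077 (adjusted p = 0.604). Of 5 NRF2 pathway genes 0 passed and 0 had an unadjusted p under 0.05, with Nqo1, a classic NRF2 target, at 0.10 (adjusted p = 0.558).

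Gpx1 and Gpx4 depend on selenoprotein synthesis, but a need for each gene listed under it was not shown here. Of these 7 listed genes, 0 passed in limma, where 0.777% of all clusters were called. An unadjusted p under 0.05 was reached by 1, against 12.7% of all clusters. This was Sephs1, a relative of the selenophosphate synthetase gene Sephs2. It read 490.4 to 562 with a median of 532 in MSN mice and 566 to 601 with a median of 593 in ICR mice, and no MSN mouse reached the lowest ICR mouse. The strains lay clear of each other in 1.44% of all clusters. The log2 fold change of Sephs1 was -0.15 (standard error 0.0359, adjusted p = 0.0707 from limma). The two-sided exact permutation test gave p = 0.00216, the smallest that 6 against 6 mice allow and not adjusted over the clusters. Sephs1 passed in limma in 3 of the 11 other settings, with an adjusted p of 0.0384 on untransformed intensities, 0.0428 with array weights and 0.0301 among the brighter clusters only, and over all settings and left-out arrays its adjusted p reached 0.227. Sephs2 lay in the other direction, at 0.089 (adjusted p = 0.416).

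Among genes of enzymes that make superoxide or peroxide, 8 of 10 had a log2 fold change below 0, against 54.5% of all clusters, and this became 6 of 10 (44.6% of all) after quantile normalization and 5 of 10 (40.5% of all) with the same median for each array. None passed in limma, where 0.777% of all clusters were called, and 3 had an unadjusted p under 0.05, against 12.7% of all clusters. Ncf1, a cytosolic subunit of the phagocyte NADPH oxidase, was at -0.12 (adjusted p = 0.190), which became -0.16 (adjusted p = 0.0397) without ICR replicate 3. Cybb, the membrane subunit of the same oxidase, was at -0.16 (adjusted p = 0.219), and Maob, the monoamine oxidase of glia, named here after its values were seen, was at -0.13 (adjusted p = 0.362). Microglia are among the cells of the brain that can make the NADPH oxidase. Of 8 microglial markers 0 passed and 7 were above 0, against 45.5% of all clusters. At an unadjusted p under 0.05 there was 1, against 12.7% of all clusters, C1qb at 0.17 (adjusted p = 0.317). The summed intensity of the 8 markers was 6494 to 7895 in MSN and 6107 to 7312 in ICR mice. The part of microglia or other cells in the oxidase values was not tested.

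**Figure D5:**
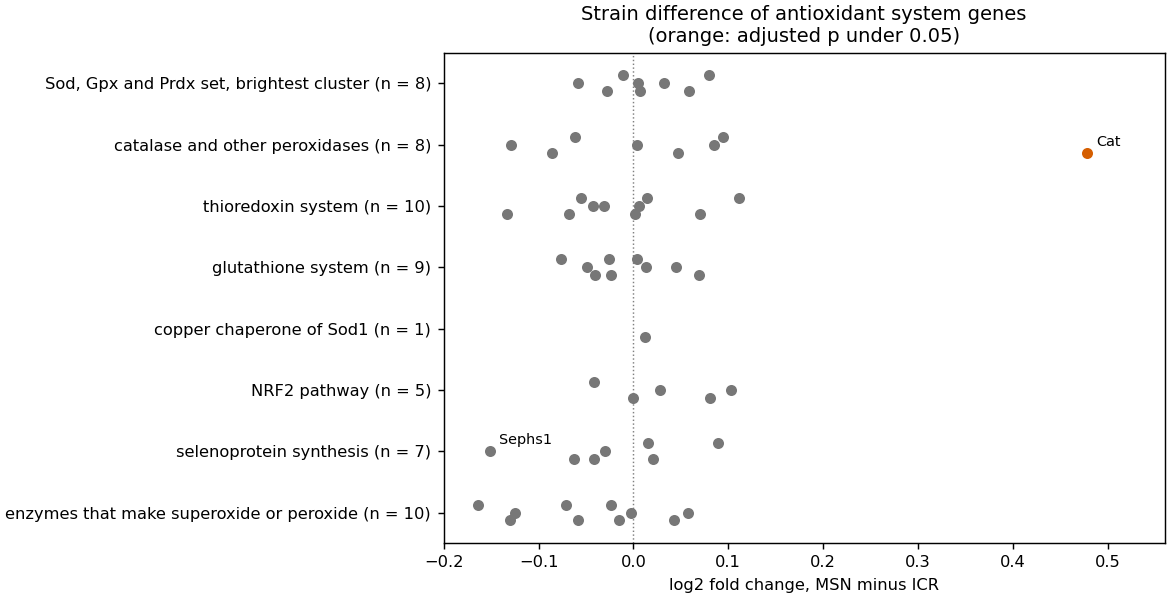
Log2 fold change of MSN over ICR for the 8 genes of the set (brightest cluster) and for 50 other genes of the antioxidant system by group, each point a gene. Cat, in orange at 0.48, is the gene that passed an adjusted p of 0.05, and the others lie between -0.16 and 0.11.

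Markers of the cell types in the tissue were examined because peroxiredoxins and dismutases are not spread evenly over cell types. For the counts below, 0.777% of all clusters were called in limma and 12.7% had an unadjusted p under 0.05. Among 8 astrocyte markers 0 passed in limma and 4 had an unadjusted p under 0.05. Gfap, an intermediate filament of astrocytes, was at -0.30 (adjusted p = 0.101). The other 3, named after their values were seen, were Aqp4 at -0.23, Aldh1l1 at 0.19 and Slc1a2 at -0.11, with adjusted p of 0.148, 0.187 and 0.196. The summed intensity of the astrocyte list was 30050 to 32769 in MSN and 32413 to 34196 in ICR mice. Pdgfra, the receptor of oligodendrocyte precursors, was the called gene among 6 markers of these cells, at 0.26 (adjusted p = 0.0184 from limma), with a summed intensity of 5291 to 5777 in MSN and 4884 to 5463 in ICR mice. Of the 7 measured markers of mature oligodendrocytes all 7 were above 0 and 0 passed, with 2 at an unadjusted p under 0.05, Mbp at 0.094 (adjusted p = 0.286) and Mobp at 0.13 (adjusted p = 0.384). All 8 markers of choroid plexus and ependyma were above 0, 0 passed and 0 had an unadjusted p under 0.05, Kcnj13 being at 0.82 (adjusted p = 0.434), with a summed intensity from 9750 to 24042 in MSN and from 8054 to 24046 in ICR mice. The share of all clusters above 0 was 45.5%, and 55.4% after quantile normalization and 59.5% with the same median for each array. Directions of the markers were not counted under those scalings. In the main fit 8 of 9 markers of hippocampal excitatory neurons and all 6 of oligodendrocyte precursors were above 0. It was 2 of 8 for astrocytes and 1 of 6 for thalamus and cortex. Of 9 markers of hippocampal excitatory neurons 0 passed and 2 had an unadjusted p under 0.05, Neurod6 at 0.15 (adjusted p = 0.285) and Wfs1 at 0.17 (adjusted p = 0.352). Of 6 markers of thalamus and cortex 0 passed and 0 had an unadjusted p under 0.05, Tcf7l2 being at -0.10 (adjusted p = 0.427). The part of these cell types in the values of the 8 genes was not tested.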

How the data were processed

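Per the labels and the methods of the paper, the authors summarized the array scans with PLIER and a GC-bin background correction in Affymetrix Power Tools 1.12.0, and the deposited values are intensities on a linear scale, 1 per transcript cluster and array. The value table holds 35556 clusters. By GEO's platform annotation 23410 clusters carry a gene symbol, of which 21789 carry exactly 1 and 1621 more than 1. Arrays were grouped by their titles into 6 MSN and 6 ICR mice.

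Strain was fitted to log2(intensity + 16) with limma 3.58.1 (lmFit and eBayes) in R 4.3.3 over the 23410 clusters, with Benjamini-Hochberg adjustment. Where no permutation test is named, a p belongs to this fit; 95% intervals use its standard errors and are not adjusted. The number of arrays limits the precision. The fit was tested on simulated data. Correlations between mice were tested with 100000 permutations within strains. The genes of the set were named by a fixed list. Also named were Cat, every called gene and the 2 lowest p of each group among the other antioxidant genes, the lowest p of each marker list, and the 3 genes most like each of 2 clusters of the set, the one with the lowest p and the one with the largest SD within strains. Listed genes with several clusters were read from the brightest. Prdx4, Slc4a1, Epb42, Prox1, Wfs1, Mobp, Maob, Aqp4, Aldh1l1 and Slc1a2 lie outside this rule. The set and the lists were chosen with earlier results of these data known. The fit was repeated on the linear intensities, with 1 or 64 in place of 16, after quantile or median scaling, with trended robust eBayes or array weights, on the brighter clusters, on all clusters, on a single cluster for each gene, with replicate number blocked, and without each array in turn. Promoter windows and pseudogene names came from RefSeq tables of GRCm38.p6.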

Additional observations from a re-analysis of the deposited data

Results flagged for a closer look

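In Prdx1 cluster 10436048, MSN replicate 1 stood apart from the other MSN mice: its intensity of 2260 left a gap of 0.701 of the strain's range on the log2 scale, above the 95% critical value of Dixon's test for 6 values. It was the only flag among 22 groups of 6 values, where chance alone flags about 1 in 20. Without this mouse the log2 fold change of the cluster was 0.069 (adjusted p = 0.621 from limma).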

How the results depend on the processing

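In the 11 other settings, and without any 1 array, 0 of the genes tested passed (all 8, except that Sod3 was too dim to enter the test among the brighter clusters), with a lowest adjusted p of 0.307 and 0.247 (limma). Of 117 values of the member clusters under other settings 116 kept their direction and side of the threshold. That of Sod1 turned to 0.015 with the same median for each array. Trended robust eBayes, the brighter clusters, all clusters, a single cluster for each gene and the replicate block left the log2 fold changes unchanged. A direction could not turn there. With 1 array left out, 15 of 132 values turned direction. Leaving out 1 array gave log2 fold changes of -0.026 to 0.0061 for Sod1, -0.0084 to 0.023 for Sod2, -0.12 to 0.081 for Sod3, and -0.015 to 0.020 and -0.012 to 0.019 for the Gpx4 clusters. The called clusters of the whole array numbered 279 with a pseudocount of 64, 315 with array weights, and 91 to 210 with 1 array left out. Among the other antioxidant genes 2 passed on untransformed intensities, with array weights and among the brighter clusters only, where Sephs1 joined Cat, and 1 to 2 with 1 array left out. Same-numbered arrays correlated at -0.13 to 0.13 after strain means were taken off, and 1 of 6 MSN arrays correlated best with its own number, so the samples share only a number. With the replicate number as a block 42 clusters, 0 of the 8 genes and 0 of the other antioxidant genes passed, Cat with an adjusted p of 0.0502. The causes were not tested. Without known signal over background, differences of dim genes are the least certain.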
